A study of Mus musculus with 9 samples.

Results

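Voltage-gated calcium and sodium channels were examined in 2 sorted cell types, Merkel cells and basal keratinocytes of the epidermis of newborn (P0) Sox2-GFP reporter mice. The set holds 29 genes, listed by symbol: 18 for calcium channel subunits and 11 for sodium channel subunits, out of 49672 rows in the deposited table. All 29 were found by their Ensembl identifiers. The 3 Merkel libraries came from GFP-positive cells. The 6 basal libraries came from cells without GFP, sorted on SCA1 together with CD49F. All mice carried the Sox2-GFP reporter, and both groups were sorted from the same strain, age and tissue. The titles give sample numbers 1 to 3, with a Merkel library and a pair of basal libraries in each, named the second and the first basal library below. The labels do not say how the 2 basal libraries differ, nor which animals stand behind a number, so p-values measure only the spread between these numbers, part of which may be technical. A GFP sort on a Sox2 reporter takes any dissociated cell in which the reporter is active.

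Voltage-gated calcium channels open when the membrane depolarises and let calcium in, which triggers release from vesicles and shapes electrical activity. The pore is a single large α1 protein. A cytoplasmic β subunit and an extracellular α2δ subunit help it reach the membrane and set its gating. L-type pores carry long-lasting currents, P/Q-, N- and R-type pores sit at many presynaptic endings, and T-type pores open at low voltages. Voltage-gated sodium channels drive the fast spikes of nerve and muscle, with small β subunits beside the pore. Merkel cells are touch receptors that signal to sensory nerve endings, and they are known to fire calcium-based rather than sodium-based action potentials in rodents.

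Values are TPM, an abundance corrected for transcript length and brought to an equal total per library, so levels can be set side by side between genes. Read depth is unknown, and values near 0 are the least precise. Between 13012 and 13649 genes reached 1 TPM in a library. The labelled cell types carried their markers. All 7 Merkel markers on a list (Krt8, Krt18, Krt20, Atoh1, Sox2, Isl1, Piezo2) were higher in Merkel cells, and 5 of 6 basal keratinocyte markers were lower. The basal keratinocyte markers still summed to 4539 to 5076 TPM in Merkel libraries, against 729.5 to 977.7 for the Merkel markers there. Krt14 averaged 2187 TPM for Merkel cells and 7731 for basal keratinocytes. The source of this keratinocyte RNA in Merkel libraries, and its part in the channel levels there, was not tested. The first basal libraries stood apart by the immune markers Ptprc and Csf1r. With Cd207 and Cd3e, which overlapped between the 2 kinds of basal library, their summed TPM averaged 15.6 in Merkel, 14.3 in second basal and 161.3 in first basal libraries. Melanocyte markers summed to 150.4 to 210.8 TPM in Merkel, 104.6 to 151.6 in second basal and 15.8 to 34.3 in first basal libraries. Results below are therefore given against both kinds of basal library together and against each alone.

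Calcium channel genes were higher in Merkel cells in 5 cases and lower in 0, and sodium channel genes in 0 cases either way. The highest fold change was that of the α2δ gene Cacna2d1. The others were the P/Q-type pore Cacna1a, the N-type pore Cacna1b, the α2δ gene Cacna2d2 and the R-type pore Cacna1e, whose order depended on the constant added to TPM: with 1 added Cacna1a was the next highest (1.63, against 1.40 for Cacna1b and 1.10 for Cacna1e), and with 0.1 added Cacna1b was (3.61, against 2.76 for Cacna1e and 2.23 for Cacna1a). A gene was tested if it reached 1 TPM in at least 3 of 6 values (3 Merkel values and 3 basal values, each of the latter the mean of the 2 basal libraries of a number on the log2 scale). Of the 29 genes 11 were tested, 10 of them calcium and 1 sodium channel genes. A gene was called at an adjusted p under 0.05 (limma, Benjamini-Hochberg over all 13822 tested genes) together with a difference of at least 1 in either direction on the log2(TPM + 1) scale. Over all tested genes 6.79% were called higher and 5.27% lower. A member near 0 in basal keratinocytes entered the test only through 3 Merkel values of 1 TPM or more, and it then lay close to the limit for a call. The count of calls among tested genes is therefore largely set by that filter, and it is no share of the 29. Over the whole set of 29, every Merkel library lay above every basal library in 12 genes and below in 0; over all 49672 rows of the table, most of them low, these shares were 5.47% and 9.64%. Among the 11 tested members the counts were 8 and 0, and among all tested genes the shares were 11.7% and 26.2%. Of the 12, 10 were calcium channel genes and the other 2 were the sodium channel genes Scn9a and Scn11a, at 0.03 TPM or less in every library.

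**Figure D1:**
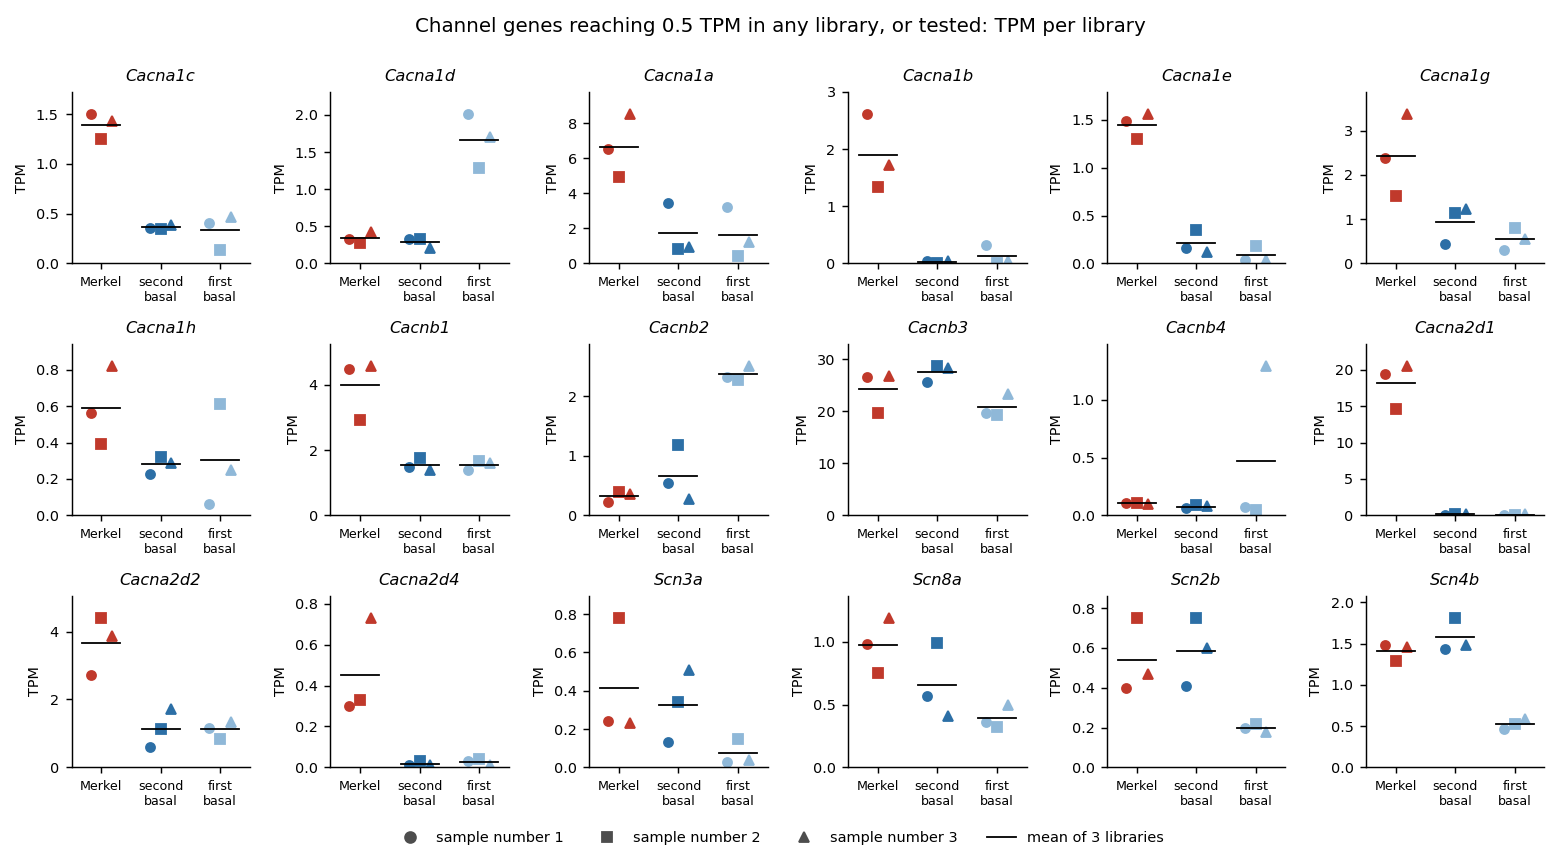
TPM per library for the 18 channel genes that were tested or reached 0.5 TPM in any library, each on its own linear axis from 0. Points are libraries in Merkel, second basal and first basal order, marker shapes are sample numbers, and lines are means of 3. Cacna2d1 sits at 14.6 to 20.5 TPM in Merkel libraries and at 0.17 or less in basal libraries, while Cacnb3 spans similar levels in all 3 groups.

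The promoter windows of the called genes are shown first, since these genes moved in the same direction. RefSeq (GRCm38.p6, the same assembly as the authors' mm10) gave windows of 250 bases before to 50 after the start for 23 of the 29 genes, 33 windows in all, and for 4 of the 5 called genes. The 2 with the highest fold changes among these 4, an α2δ and a pore gene, are printed 5′ to 3′ on the gene's strand, with matches to the E-box CAGNTG, the kind that Atoh1 binds, in capitals on either strand.
Cacna2d1 promoter, chr5:15934441-15934740, plus strand: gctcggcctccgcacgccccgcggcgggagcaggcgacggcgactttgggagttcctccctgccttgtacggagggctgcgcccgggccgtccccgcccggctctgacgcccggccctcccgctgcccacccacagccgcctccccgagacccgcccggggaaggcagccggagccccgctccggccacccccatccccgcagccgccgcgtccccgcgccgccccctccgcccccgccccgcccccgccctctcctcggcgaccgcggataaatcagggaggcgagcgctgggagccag
Cacna1b promoter, chr2:24763103-24763402, minus strand: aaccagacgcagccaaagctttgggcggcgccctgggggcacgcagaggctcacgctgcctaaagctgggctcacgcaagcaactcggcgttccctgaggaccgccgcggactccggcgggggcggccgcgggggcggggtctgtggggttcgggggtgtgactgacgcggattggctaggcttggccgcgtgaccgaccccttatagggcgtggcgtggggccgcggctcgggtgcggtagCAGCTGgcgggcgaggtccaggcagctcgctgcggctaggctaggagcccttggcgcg

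The Cacna2d1 window is 80.0% G or C and holds 42 CpG pairs, and the Cacna1b window is 72.3% and holds 35. The median over all 32851 windows is 52.7% and 7 CpG pairs. The Cacna2d2 window is also GC-rich (75.7%, 43 CpG pairs), whereas that of Cacna1e is at 55.3% with 11. The E-box letters occur once in the Cacna1b window and nowhere in those of Cacna2d1, Cacna2d2 and Cacna1e. Of the 33 windows of channel genes 17 (51.5%) hold them, against 51.4% of all windows. A match is a description of letters and not a binding site, and the absence of a match covers only these 300 bases. 

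Cacna2d1, which encodes the α2δ subunit that gabapentin binds, lies on chromosome 5 from 15934691 to 16374511 (mm10). It was at 19.4, 14.6 and 20.5 TPM in Merkel libraries 1, 2 and 3. In second basal libraries it was at 0.11, 0.17 and 0.16 TPM and in first basal libraries at 0.04, 0.06 and 0.15. The lowest Merkel library stood far above the highest basal library. Merkel cells averaged 18.2 ± 3.17 TPM, against 0.115 ± 0.0400 for basal keratinocytes (SD, n = 3 each), and the log2 fold change was 4.09 ± 0.15 (SE, limma adjusted p = 2.9e-07). Bulk values cannot tell a gene carried by fewer cells from one with less RNA per cell.

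Cacna2d2, another α2δ subunit, was at 2.73, 4.40 and 3.87 TPM in Merkel libraries, at 0.60, 1.12 and 1.71 in second basal and at 1.17, 0.84 and 1.34 in first basal libraries. The groups did not overlap, and the log2 fold change was 1.13 ± 0.18 (adjusted p = 0.0013). Cacna2d2 was the leading α2δ gene of basal keratinocytes and came after Cacna2d1 in Merkel cells. Of the summed TPM of the 4 α2δ genes, Cacna2d1 held 74.1% to 85.3% in Merkel, 8.47% to 15.1% in second basal and 6.41% ± 3.46 (mean and SD, n = 3) in first basal libraries. Cacna2d2 held 16.5% ± 5.32 (mean and SD, n = 3) in Merkel, 82.2% to 90.5% in second basal and 85.7% to 90.7% in first basal libraries. The sum of the 4 genes averaged 22.6 ± 2.92 TPM for Merkel cells, against 1.29 ± 0.359 for basal keratinocytes.

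The remaining α2δ genes were below the level for testing. Cacna2d4, known for its part in retinal photoreceptors, was at 0.30, 0.33 and 0.73 TPM in Merkel libraries, against 0.03 or less in second and 0.04 or less in first basal libraries. Cacna2d3, needed for heat pain in flies and mice, was at 0.32 to 0.38 TPM in Merkel libraries and 0.05 or less in basal libraries. Neither overlapped between groups. With no filter on low values Cacna2d3 had a log2 fold change of 0.41 (adjusted p = 0.00089) and Cacna2d4 one of 0.50 (adjusted p = 0.021). Both are under the limit for a call, which a gene below 1 TPM cannot reach on this scale.

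Among the pores, the 3 genes of the presynaptic type were called higher. Cacna1a, the P/Q-type pore, lies on chromosome 8 from 84388440 to 84640246. It was at 6.53, 4.93 and 8.52 TPM in Merkel libraries, at 3.43, 0.80 and 0.96 in second basal and at 3.20, 0.42 and 1.22 in first basal libraries. Both basal libraries of number 1 were high, so that the gap to Merkel cells was narrowest there, although no basal library reached a Merkel library. The log2 fold change was 1.63 ± 0.34 (adjusted p = 0.0047), and 2.04 without basal replicate 1. It had the widest spread of the called genes.

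Cacna1b, the N-type pore and the target of cone snail toxins used against pain, was at 2.61, 1.33 and 1.72 TPM in Merkel libraries. It was at 0.04, 0 and 0.05 TPM in second basal and 0.33, 0.01 and 0.05 in first basal libraries. All Merkel libraries lay above all basal libraries, and the log2 fold change was 1.40 ± 0.17 (adjusted p = 0.00032). It lies on chromosome 2 from 24603887 to 24763152.

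Cacna1e, the R-type pore, was at 1.49, 1.30 and 1.56 TPM in Merkel libraries, at 0.16, 0.35 and 0.12 in second basal and at 0.04, 0.18 and 0.04 in first basal libraries. Its Merkel values were the most even of the 3, and the log2 fold change was 1.10 ± 0.13 (adjusted p = 0.00022). It lies on chromosome 1 from 154390731 to 154884501.

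The L-type pores differed from one another. Cacna1c, the L-type pore of heart and smooth muscle, was at 1.50, 1.25 and 1.43 TPM in Merkel libraries, at 0.36, 0.35 and 0.39 in second basal and at 0.41, 0.14 and 0.47 in first basal libraries. The groups did not overlap. The log2 fold change, 0.83 ± 0.12 (adjusted p = 0.00095), was under the limit for a call with 1 added to each TPM value, and was 1.16 with 0.5 added and 1.77 with 0.1 added, both of which passed. It also passed without small and mitochondrial RNA (1.17).

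Cacna1d, the L-type pore of inner hair cells and pacemaker cells, went another way. It was at 0.33, 0.28 and 0.42 TPM in Merkel libraries, at 0.33, 0.33 and 0.21 in second basal and at 2.01, 1.29 and 1.70 in first basal libraries. The first basal libraries stood above all others, while Merkel and second basal libraries overlapped. Among the L-type pores Cacna1d held 18.0% to 21.9% of the summed TPM in Merkel, 35.0% to 47.1% in second basal and 78.0% to 87.8% in first basal libraries. Cacna1c held 74.5% to 82.0% in Merkel, 49.3% to 65.0% in second basal and 9.52% to 21.6% in first basal libraries. Cacna1d was not tested at 1 TPM; with the filter at 0.5 TPM its log2 fold change was -0.46 (adjusted p = 0.0099, not called). Its exons overlap 589 bases of Chdh on the opposite strand, at a mean of 15.1 TPM in Merkel, 18.1 in second basal and 19.2 in first basal libraries, and how strand entered the quantification is not stated.

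The other L-type pores were near 0. Cacna1s, the pore of skeletal muscle, was at 0, 0 and 0.07 TPM in Merkel libraries and listed at 0 in every basal library. Cacna1f, the retinal pore, was listed at 0 in every Merkel library and was at 0.06 TPM or less in basal libraries. Of the skeletal muscle markers Myog was listed at 0 in all Merkel libraries, and most of the list's 3.29 to 6.71 TPM there came from Ckm (2.97 to 6.64 TPM), its 1 tested gene, which was called higher.

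Of the T-type pores Cacna1g, known from thalamic neurons and pacemaking, was at 2.37, 1.53 and 3.37 TPM in Merkel libraries. It was at 0.44, 1.13 and 1.24 TPM in second basal and 0.30, 0.79 and 0.56 in first basal libraries, below every Merkel library. The log2 fold change was 0.97 ± 0.22 (adjusted p = 0.0074), just short of the limit. It passed against the first basal libraries alone (1.12), with median-ratio scaling (1.09) and without Merkel replicate 2 (1.17), basal replicate 2 (1.06) or basal replicate 3 (1.03). As for Cacna1c, it also passed with 0.5 added (1.24), with 0.1 added (1.64) and without small and mitochondrial RNA (1.27). Cacna1h, the T-type pore of touch-sensitive sensory neurons in mice, was at 0.56, 0.39 and 0.82 TPM in Merkel, 0.23, 0.32 and 0.29 in second basal and 0.06, 0.61 and 0.25 in first basal libraries, with overlap. Cacna1i was at 0.07 TPM or less everywhere.

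**Figure D2:**
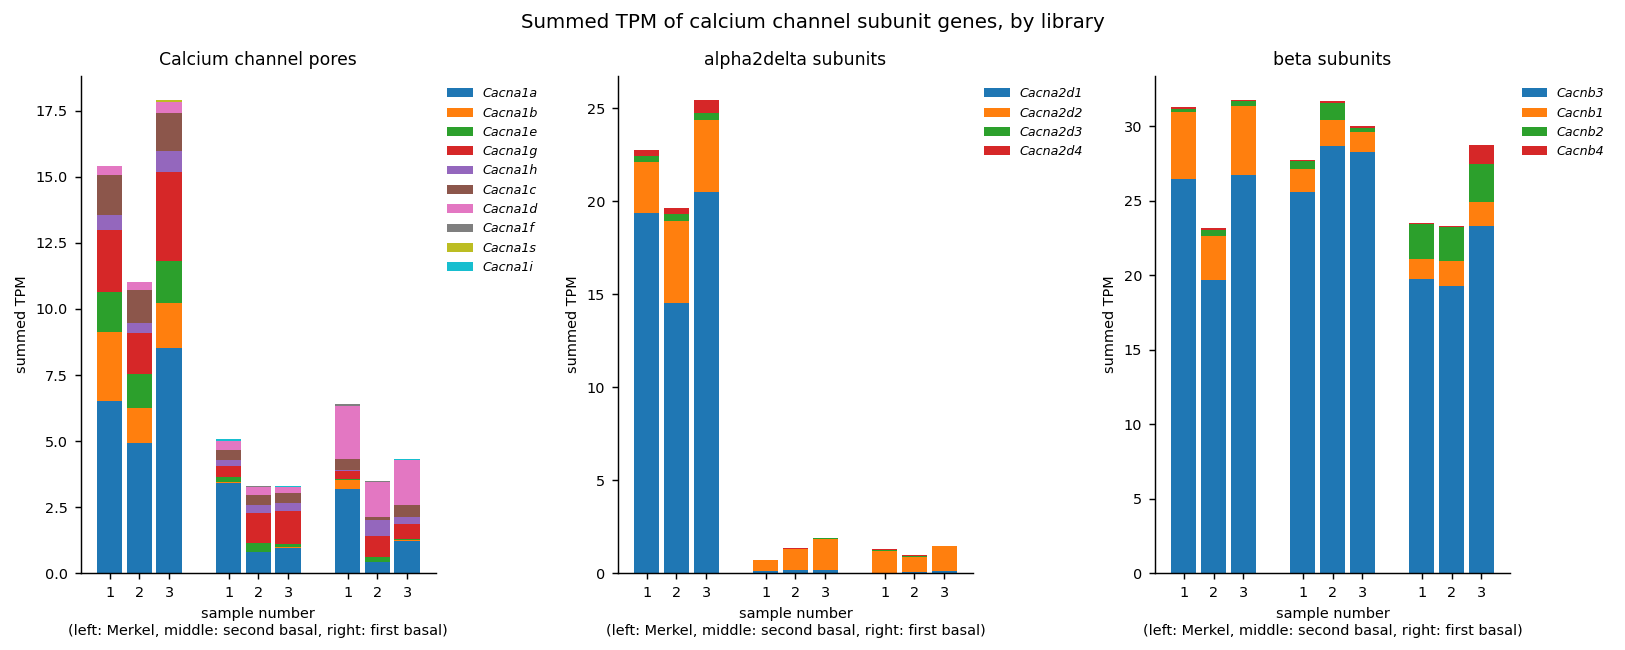
Stacked TPM of calcium channel pore, α2δ and β subunit genes in each library, on linear axes from 0, with Merkel libraries at the left, second basal in the middle and first basal at the right. The pore genes reach 11.02 to 17.9 TPM in Merkel libraries, against 3.31 to 6.41 for basal ones, while the β genes reach 23.2 to 31.8 TPM in Merkel libraries, against 23.3 to 31.7 for basal ones.

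Summed over the 10 pore genes, calcium channel pores averaged 14.8 ± 3.49 TPM for Merkel cells, against 4.32 ± 1.25 for basal keratinocytes (SD, n = 3 each), a ratio of 3.42. By share of the sum, the pores were ordered as follows. In Merkel libraries Cacna1a led and held 42.4% to 47.5% of the sum. Next came Cacna1g (13.9% to 18.8%), Cacna1b (9.60% to 17.0%), Cacna1e (8.71% to 11.8%) and Cacna1c (7.98% to 11.3%), whose TPM ranges over Merkel libraries overlapped from each to the next. In second basal libraries Cacna1a held 67.7% in number 1 and 24.2% and 28.9% in numbers 2 and 3, where Cacna1g held 34.1% and 37.4%. In first basal libraries Cacna1a led in number 1 with 49.9%, against 31.4% for Cacna1d, and Cacna1d led in numbers 2 and 3 with 37.0% and 39.4%, against 12.03% and 28.3% for Cacna1a. Cacna1b held 1.51% or less of the sum in second basal and 5.15% or less in first basal libraries.

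The β subunits, which bind the pore from inside the cell, were dominated by 1 gene in both cell types. Cacnb3 was at 26.5, 19.7 and 26.8 TPM in Merkel libraries, at 25.6, 28.7 and 28.3 in second basal and at 19.7, 19.3 and 23.3 in first basal libraries. Merkel libraries overlapped both kinds of basal library, and the log2 fold change was 0.01 ± 0.14 (adjusted p = 0.96), with its sign negative against second basal libraries alone and under some left-out libraries. Cacnb3 held 84.2% to 85.1% of the summed β TPM in Merkel, 90.4% to 94.2% in second basal and 81.2% to 83.9% in first basal libraries.

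Cacnb1, the β subunit of skeletal muscle channels that is also found in brain, was at 4.50, 2.94 and 4.58 TPM in Merkel libraries. It was at 1.49, 1.76 and 1.38 TPM in second basal and 1.39, 1.67 and 1.62 in first basal libraries, with no overlap. The log2 fold change of 0.96 ± 0.16 (adjusted p = 0.0018) was under the limit for a call. It passed with median-ratio scaling (1.12) and without Merkel replicate 2 (1.12) or basal replicate 2 (1.00). As for Cacna1c, it also passed with 0.5 added (1.12), with 0.1 added (1.29) and without small and mitochondrial RNA (1.17).

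Cacnb2, a β subunit of heart and hair cells, was at 0.22, 0.40 and 0.36 TPM in Merkel libraries, at 0.54, 1.19 and 0.27 in second basal and at 2.32, 2.28 and 2.51 in first basal libraries. The first basal libraries stood above all others, and second basal library 3 lay within the Merkel range. The log2 fold change was -0.82 ± 0.14 (adjusted p = 0.0017), not called. Cacnb4, a β subunit of brain, was at 0.10 to 0.11 TPM in Merkel libraries, against 0.05 to 0.09 in 5 of the 6 basal libraries; the exception, first basal library 3, had 1.29 TPM.

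**Figure D3:**
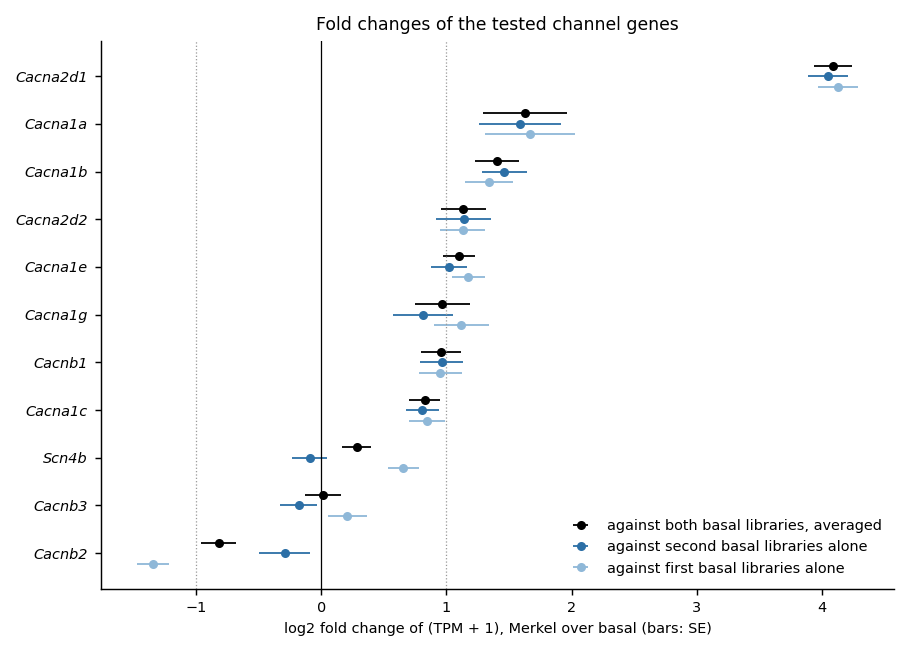
Log2 fold changes of (TPM + 1), Merkel over basal, for the 11 tested channel genes, with standard errors. Black points use the mean of both basal libraries, dark blue the second and light blue the first basal libraries alone, and dotted lines mark the size needed for a call. Cacnb2 moves most between the basal libraries used, from -0.29 against second to -1.35 against first.

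The 5 calls held against each kind of basal library alone. Against second basal libraries Cacna2d1 was at a log2 fold change of 4.05, Cacna1a at 1.59, Cacna1b at 1.46, Cacna2d2 at 1.14 and Cacna1e at 1.02; in that comparison 6.46% of all tested genes were called higher and 5.11% lower. Against first basal libraries they were at 4.13, 1.67, 1.34, 1.13 and 1.17 in that order, where 7.46% of genes were called higher and 6.68% lower. Both sets of values share the same Merkel libraries. Cacnb2 was called lower against first basal libraries (-1.35, adjusted p = 0.00010) and was at -0.29 against second (adjusted p = 0.29).

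Markers of other cell types were also measured beside these calls. The shares to set beside their counts are those of all tested genes, 6.79% called higher and 5.27% lower. Of 7 fibroblast markers 6 were tested and 5 were called higher in Merkel libraries, with a summed level of 174.6 to 269.3 TPM in Merkel, 102.3 to 253.4 in second basal and 36.1 to 103.1 in first basal libraries. Most of that sum was Dcn, which was not called (0.35). The 5 called genes stood further apart: Col3a1 averaged 29.9 TPM for Merkel cells, against 0.965 for basal keratinocytes, Col1a2 38.3 against 5.12, Corin 9.06 against 0.120, Pdgfra 6.38 against 0.0833, and Col1a1 2.51 against 0.243 (n = 3 each). Of 6 melanocyte markers 5 were called higher, led by Dct, and 0 against second basal libraries alone, where the log2 fold changes of the 6 were -0.070 to 0.91. Of 4 smooth muscle and pericyte markers 3 were tested and 1, Rgs5, was called higher, with sums of 5.98 to 6.73 TPM in Merkel, 1.42 to 2.02 in second basal and 1.09 to 1.59 in first basal libraries. Erbb3 led the Schwann cell markers, of which limma tested 4 of the 6 and called 0. Sox10 missed a call on size alone (log2 fold change 0.65, limma adjusted p = 0.047). It was called higher against first basal libraries alone, and was at -0.27 and not called against second. Of 4 endothelium markers Pecam1 alone was tested, and it missed a call on size (log2 fold change 0.97, limma adjusted p = 0.00092). It averaged 1.76 TPM for Merkel cells, against 0.408 for basal keratinocytes, and was called higher against second basal libraries alone (1.08). The part of fibroblast, melanocyte, pericyte, endothelial and muscle RNA in the channel calls was not tested. Of 7 sensory neuron markers Calca alone was tested and called higher (2.07 to 4.09 TPM in Merkel libraries). Mrgprd was listed at 0 in Merkel libraries, and Prph, Nefl and Nefm were at 0.15 TPM or less there.

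Sodium channel pores were low in every library. The 8 pore genes averaged a sum of 1.66 ± 0.171 TPM for Merkel cells, against 0.807 ± 0.253 for basal keratinocytes (SD, n = 3 each), with 1.46 to 1.77 TPM in Merkel, 0.70 to 1.64 in second basal and 0.40 to 0.69 in first basal libraries. Merkel libraries overlapped the second and lay above the first basal libraries. Calcium channel pores summed to 8.92 times the sodium channel pores in Merkel, 3.57 times in second basal and 9.11 times in first basal libraries (ratios of mean sums), so that the ratio in Merkel cells lay between those of the 2 kinds of basal library.

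Scn8a, the main pore of axon initial segments and nodes, led the sodium channel pores. It was at 0.98, 0.75 and 1.19 TPM in Merkel libraries, at 0.57, 0.99 and 0.41 in second basal and at 0.36, 0.32 and 0.50 in first basal libraries. Second basal library 2 lay within the Merkel range. With the filter at 0.5 TPM the log2 fold change was 0.38 (adjusted p = 0.036), not called. Scn3a, a pore of developing neurons, was at 0.24, 0.78 and 0.23 TPM in Merkel, 0.13, 0.34 and 0.51 in second basal and 0.03, 0.15 and 0.04 in first basal libraries, with overlap.

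The sodium channel pores of adult neurons and muscle were lower still. Scn2a was at 0.16 to 0.32 TPM in Merkel libraries, against 0 to 0.28 for basal ones. Scn1a, of inhibitory neurons, and Scn4a, of skeletal muscle, were at 0.03 TPM or less in every library. The pores of pain-sensing neurons were at the bottom of the range as well. Scn9a was at 0.01 to 0.02 and Scn11a at 0.01 to 0.03 TPM in Merkel libraries, and both were listed at 0 in all basal libraries. Scn10a was listed at 0 in every Merkel library and was at 0.01 TPM in a single basal library.

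Of the sodium channel β subunits Scn4b, known to promote resurgent current in neurons, was the 1 tested sodium channel gene. It was at 1.48, 1.29 and 1.46 TPM in Merkel libraries, at 1.44, 1.81 and 1.48 in second basal and at 0.47, 0.53 and 0.59 in first basal libraries. Merkel and second basal libraries overlapped, and the first basal libraries lay below both. The log2 fold change was 0.28 ± 0.12 (adjusted p = 0.092), or 0.66 against first and -0.094 against second basal libraries. Scn2b was at 0.40, 0.75 and 0.47 TPM in Merkel, 0.41, 0.75 and 0.60 in second basal and 0.20, 0.22 and 0.18 in first basal libraries, the same arrangement. Scn3b was at 0.14 TPM or less everywhere.

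**Figure D4:**
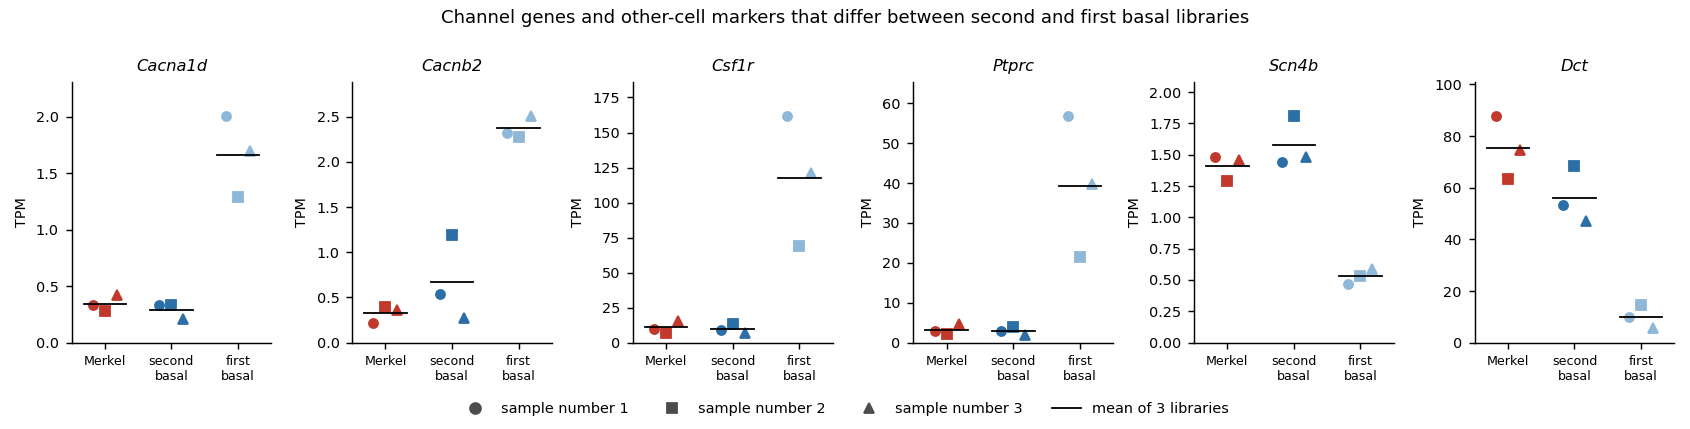
TPM per library of the channel genes Cacna1d, Cacnb2 and Scn4b beside the immune genes Csf1r and Ptprc and the melanocyte gene Dct, on linear axes from 0; points are libraries, shapes are sample numbers and lines are means of 3. Cacna1d, Cacnb2, Csf1r and Ptprc are highest in first basal libraries, and Scn4b and Dct lowest there.

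Between second and first basal libraries 1 of the 11 tested channel genes was called lower and 0 higher (limma with the sample number as block), where 3.21% of all tested genes were lower and 0.745% higher in the second libraries. The called gene was Cacnb2 (log2 fold change -1.05 ± 0.19, adjusted p = 0.030). Its call was lost without replicate 1 (-1.02, adjusted p = 0.13) or replicate 3 (-0.85, adjusted p = 0.12) and with no filter on low values (adjusted p = 0.16). Scn4b was higher in the second libraries by a log2 fold change of 0.75 ± 0.09 (adjusted p = 0.014) and Cacnb3 by 0.39 ± 0.08 (adjusted p = 0.038), both under the size needed for a call. Neither kept an adjusted p under 0.05 with no filter (0.11 for Scn4b and 0.14 for Cacnb3) or without replicate 1 (0.080 and 0.16) or replicate 3 (0.079 and 0.13), and without the block Cacnb3 was at 0.079 and Scn4b at 0.0071. Cacna1d, not among the tested genes, had -1.04 (adjusted p = 0.11) with no filter on low values.

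These differences ran beside those of other cell types. The macrophage receptor gene Csf1r was at 8.97, 13.4 and 6.81 TPM in second and 161.9, 69.2 and 121.2 in first basal libraries, and the leukocyte gene Ptprc at 2.94, 3.86 and 1.84 against 56.9, 21.5 and 39.7. Among first basal libraries Cacna1d and Csf1r had the same order, number 1 highest and number 2 lowest. The exchanger gene Slc8a1, described below, had that order as well (12.7, 5.18 and 8.62 TPM). An order of 3 libraries can neither link nor separate genes, and the source of the shared order was not tested. Cacnb2 was within 2.28 to 2.51 TPM in first basal libraries. All 6 melanocyte markers were called higher in second than in first basal libraries. So were 2 of 6 tested fibroblast markers, Col1a2 (1.47) and Dcn (1.33), and 1 of 4 tested Schwann cell markers, Sox10 (1.84). Fibroblast markers summed to a mean of 185.5 TPM in second and 75.2 in first basal libraries. The part of immune, melanocyte, fibroblast and Schwann cell RNA in the channel differences was not tested.

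Genes that bind, anchor or work beside the channels were counted from 3 lists with 75 members, of which 42 were tested, 16 were called higher in Merkel cells and 3 lower. By comparison, 6.79% of all tested genes were called higher and 5.27% lower. The median log2 fold change of the 42 was 0.34, against -0.15 over all tested genes. The same filter applies, so that members near 0 in basal keratinocytes were tested mostly where a call was near.

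Of 34 channel modulators and anchors 19 were tested, 8 were higher and 0 lower. Stac, an adaptor that binds L-type channels, was at 16.6, 9.32 and 14.8 TPM in Merkel libraries and at 0.11 or less in basal libraries (log2 fold change 3.76, adjusted p = 1.7e-06). Nalcn, the pore of the sodium leak channel, was at 6.65, 5.26 and 6.91 TPM in Merkel libraries, and at 0.33 or less in second and 0.17 or less in first basal libraries (2.62, adjusted p = 1.9e-06). Its partner Unc80 rose with it (2.88, adjusted p = 2.0e-06). Cacng5, a relative of the muscle channel's γ subunit that also serves glutamate receptors, was at 3.58 to 5.18 TPM in Merkel libraries and 0.02 or less in basal libraries (2.38, adjusted p = 4.0e-06). The other 4 higher genes, Stac2, Cacng4, Rem2 and Ank2, had log2 fold changes of 1.40 to 1.77.

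Of 15 genes of the presynaptic release site that hold calcium channels near vesicles, 8 were tested and 4 were higher. Rimbp2, which links the pore to release-site scaffolds, was at 6.19, 5.03 and 7.64 TPM in Merkel libraries and at 0.07 or less in basal libraries (2.78, adjusted p = 2.4e-06). Unc13a, a vesicle priming factor, was at 2.25 (adjusted p = 2.6e-06), the scaffold Erc2 at 2.35 (adjusted p = 4.5e-06) and Rims2 at 1.73 (adjusted p = 1.8e-05). The 1 lower gene, Tspoap1, encodes another RIM-binding protein and was at 0.51, 0.51 and 0.90 TPM in Merkel libraries, 3.18, 3.81 and 1.50 in second basal and 2.15, 2.21 and 2.31 in first basal libraries (-1.08, adjusted p = 0.00097). Its call was lost with median-ratio scaling, and against first basal libraries alone.

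Of 26 genes for calcium stores, pumps and buffers 15 were tested, 4 were higher and 2 lower. The sodium-calcium exchanger Slc8a1, which carries calcium out of the cell, was at 36.8, 27.8 and 37.5 TPM in Merkel libraries, at 5.25, 4.45 and 4.60 in second basal and at 12.7, 5.18 and 8.62 in first basal libraries (2.24, adjusted p = 3.6e-05). Its relative Slc8a2 was at 1.85 (adjusted p = 3.4e-05), the plasma membrane pump Atp2b3 at 1.58 (adjusted p = 3.0e-05) and the store pump Atp2a3 at 1.54 (adjusted p = 7.1e-05). Another plasma membrane pump, Atp2b4, was at 23.4, 23.1 and 22.9 TPM in Merkel libraries, at 51.3, 57.3 and 48.0 in second basal and at 53.2, 45.4 and 52.1 in first basal libraries (-1.11, adjusted p = 5.7e-05). The store release channel Itpr2 was lower as well (-1.09, adjusted p = 0.00034), though not called against second basal libraries alone (-0.95). Both lower calls were lost with median-ratio scaling, which moved the median of all tested genes to 0.05.

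**Figure D5:**
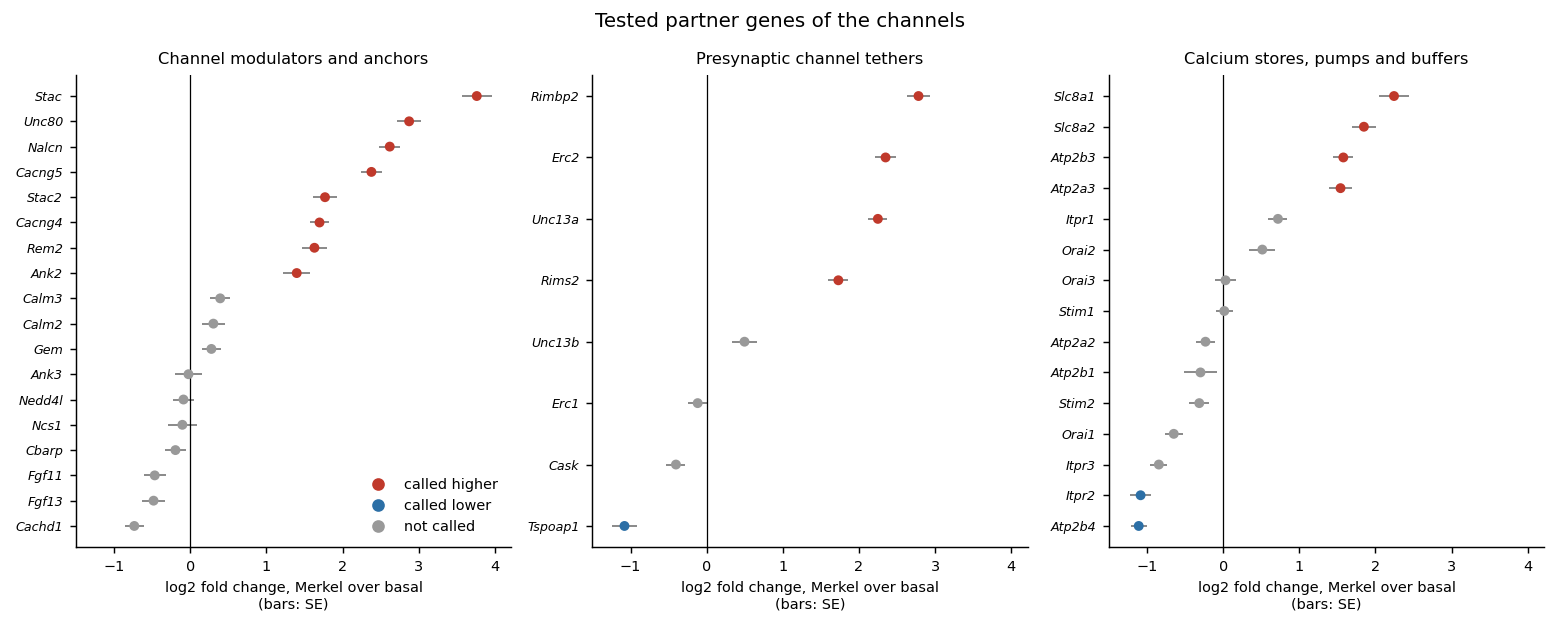
Log2 fold changes of (TPM + 1), Merkel over basal, with standard errors, for 41 of the 42 tested genes of 3 lists that work with the channels. Red points were called higher, blue lower and grey not called; Stac is the highest at 3.76 and Atp2b4 the lowest at -1.11.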

How the data were processed

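Reads of a stranded total RNA kit were processed with Trimmomatic, STAR and RSEM on mm10, per the submitters' processing notes, which name no role or version. The authors deposited TPM per gene in 1 table of 49672 rows with 2 decimals; for annotation and strand setting: not given in the sources used here. Symbols came from GENCODE M21 (GRCm38), which named 49326 rows. Of the 29 genes, 9 share exon bases with another annotated gene, each on the opposite strand, and their values are uncertain to that extent.

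Values were taken as log2(TPM + 1), with a mean of both basal libraries for each number, and genes at 1 TPM in at least 3 of 6 values fitted with limma 3.58.1 (R 4.3.3, variance trend, two-sided, Benjamini-Hochberg). Means ± SD are over 3 numbers. Same-numbered Merkel and basal deviations correlated at 0.39, 0.36 and 0.20 over tested genes. Samples of a number thus shared part of their variation, whose source the labels do not give. The fit of Merkel against basal as reported had no block for the number, and a block was an alternative. Alternatives changed the pseudocount, filter, scaling, block and libraries. Genes named are all 29 members, of partner lists those called with up to 4 smallest adjusted p per direction, and any where a count is 5 or fewer, and leading markers; other markers were named after their values were seen; members, lists and tests were chosen with earlier results of these data known. Python 3.11.15, pandas 2.3.3 and matplotlib 3.10.9 made tables and plots. The values of 1 partner gene are not reported here; it stays in the counts.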

Additional observations from a re-analysis of the deposited data

Results flagged for a closer look

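Among the 18 channel genes described by library, 4 had a basal library far from the other basal libraries. These were Cacna1c at 0.14 TPM in first basal library 2, Cacna1b at 0.33 TPM in first basal library 1, Cacnb4 at 1.29 TPM in first basal library 3 and Scn8a at 0.99 TPM in second basal library 2. The rule used is met by chance in about 1 of 20 groups of values drawn from 1 normal distribution. That rate need not hold for TPM near 0 with both kinds of basal library pooled. The flagged basal values did not reach a Merkel value for Cacna1c or Cacna1b, whereas for Cacnb4 and Scn8a they did. Cacnb4 shares exon bases with A430018G15Rik of the other strand, whose level was 0.99 TPM in that library and 0.46 to 1.21 in the other basal libraries.

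For 3 genes the difference from Merkel cells depended on the kind of basal library, by the test of second against first libraries (limma, sample number as block). Cacnb2 was at -1.05 (adjusted p = 0.030), Cacnb3 at 0.39 (adjusted p = 0.038) and Scn4b at 0.75 (adjusted p = 0.014) on the log2 scale. Each had the same sign in all 3 sample numbers, and none kept an adjusted p under 0.05 with no filter on low values or without replicate 1 or 3.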

How the results depend on the processing

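Over 17 alternatives the 11 tested genes gave 187 values, of which 161 kept direction and side of the threshold, 21 newly passed it and 5 changed sign, none of them for a called gene. Cacna2d1, Cacna1a, Cacna1b, Cacna2d2 and Cacna1e were called under all 17. The count of higher members was 8 with 0.1 or 0.5 added or without small and mitochondrial RNA, and 5 to 7 with a library left out. The count of lower members was 1 (Cacnb2) under those 3 settings and against first basal libraries alone. With the sample number as a replicate block the counts stayed at 5 and 0, and the block changed no call of a member. Lower partner genes numbered 0 with median-ratio scaling and 1 with quantile normalization. Lower genes overall numbered 1281 with 0.1 added and 418 with median-ratio scaling, where 72.4% of calls were higher, against 56.3% as reported. Signs changed for Cacnb3 (-0.18 against second basal libraries, and -0.061 to 0.15 with a library left out) and Scn4b (-0.094 against second basal libraries). For second against first basal libraries, 1 member was higher with 0.1 added, 0 were lower with no filter and 0 to 1 with a number left out, where values near 0 also changed sign: Cacna1a -0.051 to 0.21, Cacna1c -0.066 to 0.10, Cacna2d2 -0.12 to 0.21 and Cacnb1 -0.045 to 0.053. The cause of these changes was not tested. TPM keeps no depth, which limits what can be said of genes below 1 TPM.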
